A study of Mus musculus with 6 samples.

Results

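Lysosomal cathepsins are the proteases by which lysosomes digest protein. They were described here in LSK cells, marrow cells sorted as lacking lineage markers and carrying Sca-1 and Kit, a sort that enriches stem cells and early progenitors. The members were all probe sets, other than the array's own controls, whose platform annotation gives a single gene symbol that is Ctsa, Ctsb, Ctsc, Ctsd, Ctse, Ctsh, Ctsl or Ctsz. That rule took 14 probe sets of 8 genes, out of 22626 probe sets on the array. RNA of sorted LSK cells from Gfi1 knockout mice and from Gfi1 wild-type mice was labelled after 2 rounds of amplification and hybridised to Affymetrix arrays, with 3 arrays for the knockout label and 3 for the wild type, numbered 5, 7 and 8 in each group. Neither the form of the Gfi1 allele nor the strain, the age or the number of mice behind an array is given in the sources used here, so the p-values speak only of the spread among these samples, which may be technical. In bulk samples such as these, fewer cells of a type and less RNA per cell cannot be told apart.

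Cathepsins are made as inactive precursors, carried to lysosomes by sorting receptors that bind a mannose phosphate tag, and activated by cleavage at acid pH. Most belong to the papain family of cysteine proteases (Ctsb, Ctsc, Ctsh, Ctsl and Ctsz here), Ctsd and Ctse are aspartic proteases, and Ctsa is a serine carboxypeptidase. In blood cells they degrade engulfed protein and process antigens, and Ctsc activates the serine proteases of granules. Ctse differs from the others in that it is found mainly in endosomes rather than in mature lysosomes. Cystatins are the inhibitors of the cysteine cathepsins.

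The values were the authors' linear MAS5 signals in arbitrary units, and every difference given below is the knockout-labelled mean minus the wild-type mean of log2(signal + 16), with its standard error (SE) taken from a limma fit over 13575 probe sets. A probe set passed at a Benjamini-Hochberg adjusted p under 0.05. The single Gfi1 probe set, which need not lie in a deleted part of the gene, had signals of 692, 1163 and 1737 on the knockout-labelled arrays, against 632, 608 and 723 on the wild-type arrays. The targeted gene was therefore not lower on the arrays labelled knockout, and every direction below rests on the labels. Kit, by which the cells were sorted, ranged from 3512 to 4669 on the knockout-labelled arrays and from 5871 to 7774 on the wild-type arrays by its brighter probe set. Cd34, a surface protein of progenitors, was at 13294 or more on all 6 arrays, against a control level of at most 162 set by the brightest of 27 Bacillus probe sets on each array. The median signal of all probe sets was 286 on knockout-labelled array 8 and lay between 318 and 335 on the other 5 arrays. Wild-type array 8 stood apart from the other wild-type arrays in genes of primary granules, so results on the cathepsins are also given without it.

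Most cathepsin probe sets had higher signals on the knockout-labelled arrays, by amounts that were mostly within 2-fold and mostly short of the threshold. Of the 14 probe sets, 13 had a difference above 0 and 1 below it, while 48.9% of all probe sets tested lay above 0. All 14 were in the tested set, and none fell to the control level on any array, the lowest signal being 289.8. The median difference was 0.57, against -0.01 over all probe sets tested. 2 of the 14 passed the threshold as higher and 0 as lower, and the background shares were 1.44% and 2.19%, or 3.63% in either direction. At an unadjusted p under 0.05 there were 10 higher and 0 lower, against 9.08% and 10.5% of all probe sets. All 3 knockout-labelled arrays lay above all 3 wild-type arrays for 6 of the 14 and below them for 0, against 11.9% and 12.1% of all. Probe sets of the same gene may measure shared transcripts, so they cannot be counted as independent. With each gene taken by its brightest tested probe set, 7 of 8 genes lay above 0 (49.2% of all genes). By gene 1 passed as higher and 0 as lower (1.41% and 2.49% of all genes), and the median was 0.44. In a fit blocked on the sample numbers, 4 of the 14 probe sets passed as higher (background 2.36%), and without wild-type array 8, 5 passed as higher (background 1.96%) with a median of 0.78. No probe set passed without the filter on dim probe sets, with eBayes without trend, or without knockout-labelled array 7, knockout-labelled array 8 or wild-type array 7.

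**Figure D1:**
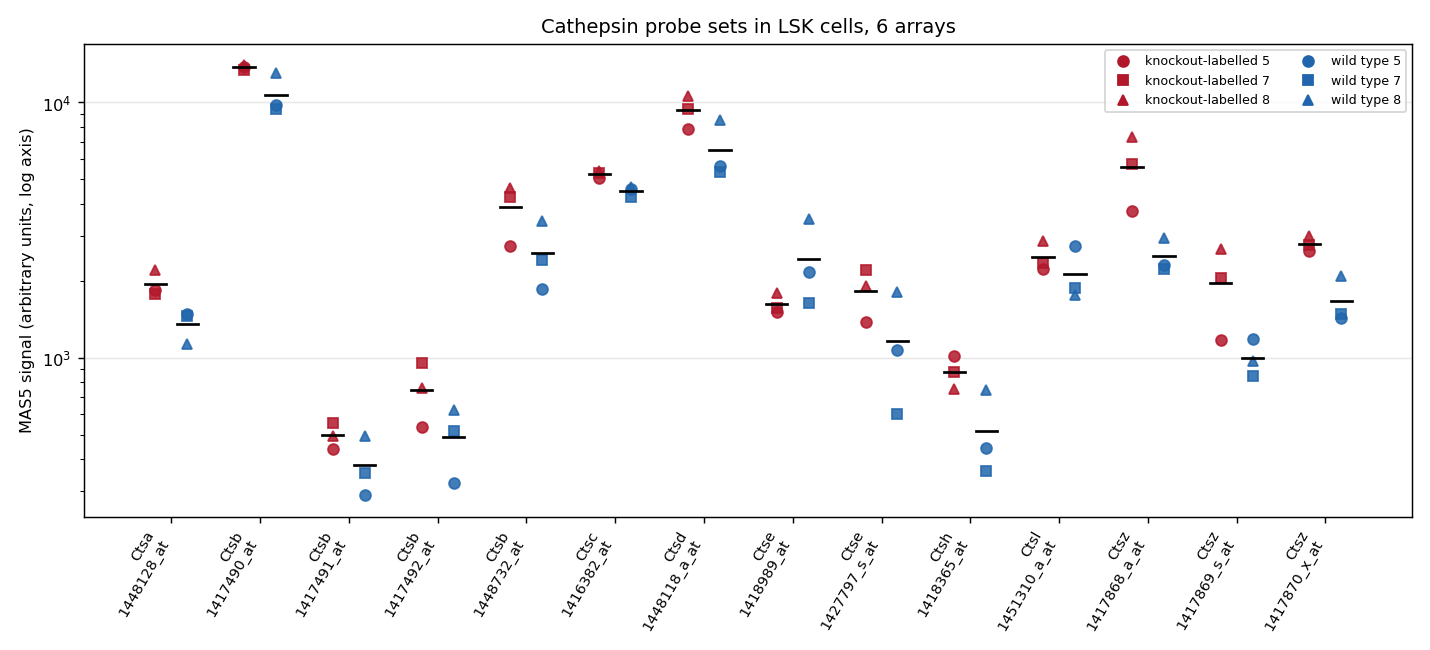
MAS5 signal (log axis) of each of the 14 cathepsin probe sets on the knockout-labelled arrays (red, left) and the wild-type arrays (blue, right), with symbols for arrays 5, 7 and 8 and a bar at each group's mean. The groups are apart for 6 probe sets, such as Ctsz 1417870_x_at with 2616 to 3003 on the knockout-labelled arrays against 1429 to 2092 on the wild-type arrays, and Ctse 1418989_at is the only probe set with a lower mean on the knockout-labelled arrays.

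Ctsz, a carboxypeptidase that removes single residues from the ends of proteins and is known for its high level in monocytes and macrophages, was the cathepsin that passed the threshold. Its probe set 1417868_a_at, whose suffix marks transcript variants of the same gene, had signals of 3764, 5721 and 7348 on the knockout-labelled arrays, against 2305, 2234 and 2956 on the wild-type arrays. The groups did not overlap, and the knockout-labelled arrays spread far more widely than the wild-type arrays. Ctsz rose by 1.12 ± 0.22 (SE) on this probe set (adjusted p = 0.0166), 2.25-fold between the means of 5611 ± 1794 on the knockout-labelled arrays and 2498 ± 398 on the wild-type arrays (SD, n = 3 each).

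The other Ctsz probe sets carry suffixes that mark a weaker match to a single transcript. Probe set 1417870_x_at gave 2616, 2759 and 3003 on the knockout-labelled arrays, against 1429, 1480.4 and 2092 on the wild-type arrays. It rose by 0.76 ± 0.19 (adjusted p = 0.0446), with no overlap between the groups. Probe set 1417869_s_at gave 1178, 2045 and 2659 on the knockout-labelled arrays, against 1184, 846 and 974 on the wild-type arrays. Knockout-labelled array 5 fell within the wild-type range there, and the difference of 0.90 ± 0.26 did not pass (adjusted p = 0.0819), while without that array it was 1.22 with an adjusted p of 0.0177. That was the only alternative of 13 in which it passed, and without knockout-labelled array 8 it was 0.64 (0.306). All 3 Ctsz probe sets were lowest on array 5 and highest on array 8 among the knockout-labelled arrays. The call of 1417868_a_at was lost without knockout-labelled array 7 or 8 or wild-type array 7 (adjusted p of 0.0620, 0.0996 and 0.0737), without the filter on dim probe sets (0.0594) and with eBayes without trend (0.0649). That of 1417870_x_at was lost in each of these settings and also with median centring (0.0677), with quantile normalization (0.0529) and without knockout-labelled or wild-type array 5 (0.0800 and 0.102).

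The 250 bases before the annotated start of Ctsz are shown because it is the cathepsin that passed, from RefSeq's GRCm38.p6 promoters (chr2:174439040-174439289, minus strand, 5′ to 3′). Capitals would mark CACGTG (the E-box) or TCACGTG (part of the CLEAR element that the lysosomal regulator TFEB binds). They would also mark AAATC and TAAATCA, letters of the Gfi1 site that include its core AATC. Each was searched on both strands, and none occurred in this window. The shorter AATC was not searched, and its other-strand letters GATT do occur in this window.
Ctsz: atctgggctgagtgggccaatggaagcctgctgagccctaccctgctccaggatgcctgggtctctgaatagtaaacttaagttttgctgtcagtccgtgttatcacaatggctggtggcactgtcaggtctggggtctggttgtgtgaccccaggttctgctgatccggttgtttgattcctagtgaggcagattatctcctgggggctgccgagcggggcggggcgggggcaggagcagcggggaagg

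Ctsb, an abundant endopeptidase that also trims dipeptides, had 4 probe sets, all with a positive difference. The brightest, 1417490_at, gave 13813, 13420.2 and 13964 on the knockout-labelled arrays, against 9762, 9469 and 13007 on the wild-type arrays. The groups were apart by a narrow margin, because wild-type array 8 came close to the knockout-labelled arrays. Its difference was 0.37 ± 0.15 (adjusted p = 0.195), or 0.51 without wild-type array 8 (0.0816).

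Probe set 1448732_at of Ctsb gave 2744, 4274 and 4635 on the knockout-labelled arrays, against 1860.1, 2417 and 3431 on the wild-type arrays. The groups overlapped, with array 5 the lowest and array 8 the highest in both groups. Its difference of 0.60 ± 0.24 did not pass (adjusted p = 0.186), but when blocked on the sample number it did (0.60 ± 0.15, adjusted p = 0.0482), and without wild-type array 5 it was 0.39 (0.416). The dimmer probe sets 1417491_at and 1417492_at stood at 0.40 ± 0.25 and 0.62 ± 0.28 (adjusted p of 0.419 and 0.242), and both overlapped between the groups. Without wild-type array 5 they were 0.23 and 0.36, and without wild-type array 8 they were 0.60 and 0.81. Within an array, the log2 ratios between the 4 Ctsb probe sets differed between the groups by no more than 0.25, and the smallest exact permutation p among these 6 pairs was 0.3.

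Ctsh, an aminopeptidase of lysosomes, had signals of 1014, 878 and 752 on the knockout-labelled arrays, against 442, 362 and 750.3 on the wild-type arrays. Wild-type array 8 lay level with the lowest knockout-labelled array, far above the other wild-type arrays. The difference was 0.81 ± 0.27 (adjusted p = 0.113), and without wild-type array 8 it was 1.10 ± 0.24 and passed (0.0262), whereas without wild-type array 7 it was 0.59 (0.357).

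Ctsc, the dipeptidyl peptidase that activates granule serine proteases, gave 5056, 5295 and 5401 on the knockout-labelled arrays, against 4576, 4266 and 4656 on the wild-type arrays. Its groups did not overlap but lay close together, 1.17-fold apart between the means. The difference was 0.22 ± 0.15, with a 95% interval of -0.09 to 0.54 (adjusted p = 0.447). Ctsl, an endopeptidase, gave 2226, 2358 and 2854 on the knockout-labelled arrays, against 2744, 1880.2 and 1766 on the wild-type arrays. The groups overlapped because wild-type array 5 was nearly as high as the highest knockout-labelled array, and the difference was 0.24 ± 0.20, with an interval of -0.20 to 0.67 (adjusted p = 0.572). It was 0.12 without wild-type array 8, 0.13 without knockout-labelled array 8 and 0.43 without wild-type array 5, and 0 of these fits passed.

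Ctsd, the main aspartic protease of lysosomes, had signals of 7906, 9449.7 and 10618 on the knockout-labelled arrays, against 5651, 5344 and 8563 on the wild-type arrays. The overlap came from wild-type array 8, which lay above knockout-labelled array 5. The difference of 0.54 ± 0.19 did not pass (adjusted p = 0.136). It passed when blocked on the sample number (0.54 ± 0.14, adjusted p = 0.0482) and without wild-type array 8 (0.75 ± 0.18, adjusted p = 0.0351), whereas without wild-type array 7 it was 0.41 (0.393).

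Ctse, the endosomal aspartic protease, had 2 probe sets whose differences were of opposite sign. Probe set 1418989_at gave 1508, 1562 and 1794 on the knockout-labelled arrays, against 2175, 1632 and 3490.1 on the wild-type arrays. Probe set 1427797_s_at gave 1385, 2201 and 1913 on the knockout-labelled arrays, against 1069, 601 and 1805 on the wild-type arrays. Wild-type array 8 was the highest wild-type array on both, and the groups overlapped on both. The differences were -0.51 ± 0.24 (adjusted p = 0.261) and 0.77 ± 0.32 (adjusted p = 0.199), and without wild-type array 8 they were -0.22 (0.619) and 1.15 (0.0351). Without wild-type array 7 they were -0.76 (0.150) and 0.37 (0.594), so both values rested on single wild-type arrays. The log2 ratio of the second to the first was -0.12, 0.49 and 0.09 on the knockout-labelled arrays, against -1.01, -1.42 and -0.95 on the wild-type arrays. This ratio did not overlap between the groups and differed by 1.28. Its two-sided exact permutation p of 0.1 is the smallest that 3 against 3 arrays allow, and it was 0.714 after adjustment over the 10 pairs of probe sets of the same gene. The suffix of 1427797_s_at marks a probe set that may match more than a single transcript, and which Ctse transcripts each detects was not tested.

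Ctsa, the serine carboxypeptidase that also protects the lysosomal enzymes beta-galactosidase and neuraminidase, gave 1842, 1775 and 2198 on the knockout-labelled arrays, against 1489.9, 1455 and 1133 on the wild-type arrays. The groups did not overlap, and wild-type array 8 was the lowest of all 6, unlike its place for Ctsb, Ctsd and Ctsh. The difference was 0.51 ± 0.19 (adjusted p = 0.152), and 0.39 without wild-type array 8.

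The windows of Ctsd and Ctsa are shown because these members held the CLEAR letters, marked in capitals (GRCm38.p6 from RefSeq, 250 bases before the start, 5′ to 3′). Ctsd is on the minus strand at chr7:142387828-142388077, and the Ctsa window is that of its start further downstream, on the plus strand at chr2:164833523-164833772.
Ctsd: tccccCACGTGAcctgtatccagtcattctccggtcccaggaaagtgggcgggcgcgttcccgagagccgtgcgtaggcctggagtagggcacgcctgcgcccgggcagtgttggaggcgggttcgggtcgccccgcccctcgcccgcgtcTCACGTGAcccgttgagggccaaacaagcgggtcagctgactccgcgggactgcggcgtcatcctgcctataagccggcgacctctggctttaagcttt
Ctsa: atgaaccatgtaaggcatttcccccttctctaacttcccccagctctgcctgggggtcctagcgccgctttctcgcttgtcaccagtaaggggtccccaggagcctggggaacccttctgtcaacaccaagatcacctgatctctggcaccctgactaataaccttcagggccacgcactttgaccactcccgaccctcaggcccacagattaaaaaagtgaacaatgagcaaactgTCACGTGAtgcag

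RefSeq promoter windows were matched for 5 of the 8 genes, 6 windows in all, since Ctsa has 2. CACGTG occurred in the windows of Ctsa, Ctsd and Ctsl, and TCACGTG, which overlaps it, in those of Ctsa and Ctsd. In Ctsd the CACGTG letters lay 245 to 240 and 98 to 93 bases before the start, and in Ctsa 12 to 7 bases before it. Over all 32851 windows of the same length, 6.02% held CACGTG and 3.13% held TCACGTG. The letters AAATC and TAAATCA, held by 32.7% and 2.61% of all windows, did not occur in these 6 windows. The shorter Gfi1 core AATC was not searched, so its absence is not shown. A match of letters describes the window only.

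**Figure D2:**
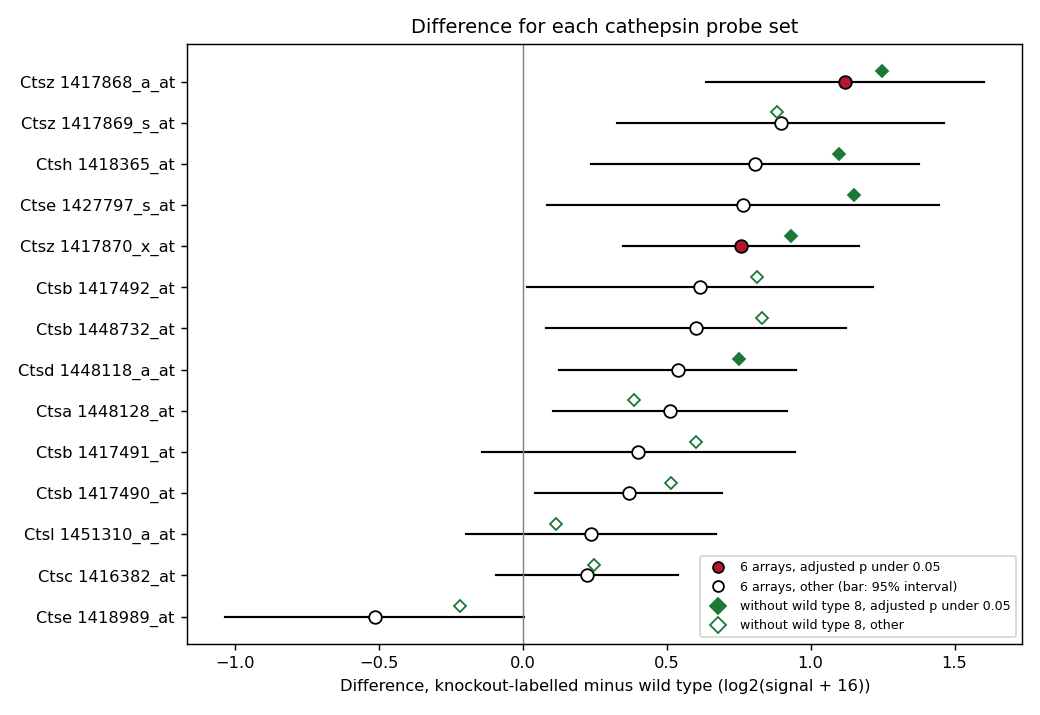
Difference (knockout-labelled minus wild type, log2(signal + 16)) of each cathepsin probe set, as circles with 95% intervals for the fit over 6 arrays and as diamonds for the fit without wild-type array 8, filled where the adjusted p is under 0.05. 2 circles (Ctsz) and 5 diamonds (Ctsz, Ctsh, Ctse and Ctsd) are filled, and 13 of 14 circles lie above 0.

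Within each group, some arrays stood at the same end for most cathepsin probe sets, 7 of which belong to Ctsb or Ctsz. Wild-type array 8 was the highest wild-type array for 11 of the 14 probe sets, whereas it was the highest for 32.8% of all probe sets tested. Knockout-labelled array 5 was the lowest of its group for 11 of 14 (33.8% of all), and knockout-labelled array 8 the highest for 10 of 14 (27.5% of all). The full order was less uniform: 8 of 14 ran 5, 7, 8 from low to high on the knockout-labelled arrays, and 7 of 14 ran 7, 5, 8 on the wild-type arrays. Ctsh ran the opposite way on the knockout-labelled arrays, with array 5 the highest and array 8 the lowest. The median deviation of the 14 probe sets from their wild-type means was 0.28, 0.66 and 0.69 on knockout-labelled arrays 5, 7 and 8, against -0.11, -0.15 and 0.37 on wild-type arrays 5, 7 and 8. Wild-type array 8 thus lay above knockout-labelled array 5 on this measure. Ctsa, Ctsl and Ctsz 1417869_s_at were the 3 probe sets for which wild-type array 8 was not the highest wild-type array.

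**Figure D3:**
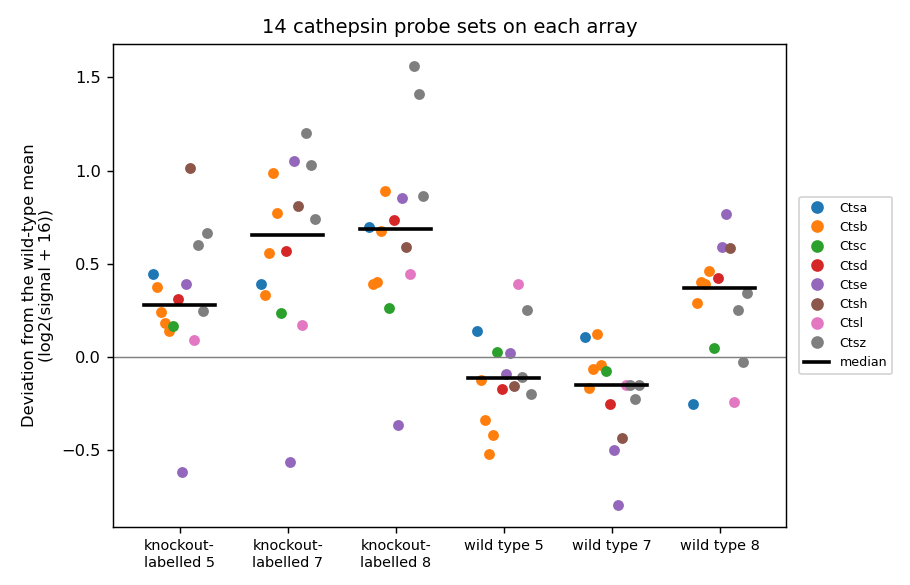
Deviation of each cathepsin probe set from its own wild-type mean (log2(signal + 16)) on each array, coloured by gene, with the median of the 14 as a black bar. The medians are 0.28, 0.66 and 0.69 on the knockout-labelled arrays, against -0.11, -0.15 and 0.37 on the wild-type arrays.

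The genes whose profile over the 6 arrays lay nearest to those of Ctsz and Ctsh, the cathepsins with the smallest adjusted p, were found by the root-mean-square distance between log2 profiles centred on their own means, among 8238 other genes by their brightest tested probe set. For Ctsz they were Me2, a mitochondrial malic enzyme, at 0.13, Gusb, the lysosomal beta-glucuronidase, at 0.18, and Nop16, a nucleolar protein, at 0.18. For Ctsh they were Mpo, the peroxidase of primary granules, at 0.09, Txnrd2, a mitochondrial thioredoxin reductase, at 0.14, and Urm1, a ubiquitin-like modifier, at 0.14. Mpo gave 32139, 29663 and 26909 on the knockout-labelled arrays, against 13036, 12096 and 23370.3 on the wild-type arrays, the same order of arrays as Ctsh. Mpo was picked for its small distance to Ctsh, so the shared order is no separate result.

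Inhibitors of cathepsins and related genes differed in both directions. Of 10 tested genes on the inhibitor list, which include Ctla2a and Ctla2b, 1 rose and 2 fell, with a median of 0.11 (-0.04 to 0.22 with 1 array left out), where by gene the background was 1.41% higher and 2.49% lower. The list also held serpins such as Serpinb9 and Serpinb1a, whose targets named below are not member cathepsins. Cst7, a cystatin of immune cells that is itself carried to lysosomes and inhibits Ctsc, gave 3593, 3841 and 4306 on the knockout-labelled arrays, against 1916, 1666 and 1622 on the wild-type arrays. It rose by 1.17 ± 0.17 (adjusted p = 0.00235), with both groups tight and far apart, and passed in all 13 alternative fits. Ctla2b, which resembles the propeptide of a cysteine cathepsin, fell by 1.43 ± 0.22 (adjusted p = 0.00294), with 2547, 2848 and 2709.7 on the knockout-labelled arrays, against 6006, 10845 and 5907 on the wild-type arrays. Its close relative Ctla2a stood at 0.07 ± 0.19 (adjusted p = 0.897), and how far probe sets of these similar genes share signal was not tested. Serpinb9, an inhibitor of granzyme B, fell by 0.84 ± 0.21 (adjusted p = 0.0476), a call lost in most alternatives (up to 0.158). Serpinb1a, an inhibitor of neutrophil elastase and cathepsin G, was at 0.39 ± 0.17 (adjusted p = 0.219).

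Many of the other cathepsins of the family lay at or below the control level. Of 16 genes on the list with a probe set, which also held Ctla2a and Ctla2b, 8 lay at or below the control level on all 6 arrays (Ctsj, Ctsm, Ctsq, Cts3, Cts6, Cts7, Cts8 and Ctsll3, most of them cathepsins of the rodent placenta), and 5 were tested. Of the 5, 1 rose, Ctsg, and 1 fell (1.41% and 2.49% of all genes). The gene that fell was Ctla2b, already counted among the inhibitors above, and no tested cathepsin of this list was called lower. The median was 0.07 and ran from -0.14 to 0.23 with 1 array left out. Ctsg, the serine protease of primary granules, rose by 1.86 ± 0.34 (adjusted p = 0.0104), with 16621, 17374 and 16263 on the knockout-labelled arrays, against 3303, 2871 and 10263 on the wild-type arrays. That call was lost without knockout-labelled array 8, without the filter on dim probe sets and with eBayes without trend (0.0572, 0.0603 and 0.0566). Ctss, a cysteine cathepsin of antigen-presenting cells, was at 0.51 ± 0.20 (adjusted p = 0.185), and Ctsf, another cysteine cathepsin, at -0.91 ± 0.29 (adjusted p = 0.0996).

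The remaining lysosomal machinery was mostly not called. Of 39 tested lysosomal hydrolases 1 rose and 0 fell, 25 lay above 0 and the median was 0.15, against -0.01 over 8239 genes, and 0.30 without wild-type array 8. Over all genes 1.41% rose, 2.49% fell and 49.2% lay above 0, so a single call among 39 genes lay near the background. The hydrolase called was Gusb, with 3865, 5516 and 5318 on the knockout-labelled arrays, against 1869.9, 2075 and 2903 on the wild-type arrays. It rose by 1.10 ± 0.20 (adjusted p = 0.0107), a call lost without knockout-labelled array 7 or 8 (0.0544 and 0.0736) and with eBayes without trend (0.0541). Gla, alpha-galactosidase A, was at 0.77 ± 0.29 (adjusted p = 0.162) and Neu1, the neuraminidase that Ctsa protects, at 0.56 ± 0.25 (0.243). Hgsnat, an enzyme of heparan sulphate breakdown, was at 0.46 ± 0.20 (0.211). The groups of these genes did not overlap, as for 11.9% of all probe sets tested, but they nearly touched. The lowest knockout-labelled signal was 1.005, 1.028 and 1.011 times the highest wild-type signal for Gla, Neu1 and Hgsnat.

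Of 32 tested membrane, activator and adaptor proteins 1 rose and 1 fell, with a median of 0.15 (0.06 to 0.18 with 1 array left out, the lowest of these without wild-type array 7), again near the 1.41% and 2.49% of all genes. Ap3s1, a subunit of the AP-3 adaptor that sorts proteins to lysosomes, rose by 1.39 ± 0.21 (adjusted p = 0.00266), with 4659.7, 6400.3 and 6112 on the knockout-labelled arrays, against 1959.6, 1756 and 2892 on the wild-type arrays. Ap1s2, a subunit of the AP-1 adaptor of the trans-Golgi network, fell by 0.87 ± 0.20 (adjusted p = 0.0331), a call lost in 8 of 13 alternatives (up to 0.126). Scarb2, the sorting receptor of glucocerebrosidase, was at 0.46 ± 0.16 (adjusted p = 0.120) and Ap1s1 at 0.44 ± 0.20 (0.248).

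No gene passed in limma among 8 sorting receptors and tagging enzymes, 17 subunits of the proton pump (V-ATPase) and 14 MiT/TFE factors and regulators, whose medians were 0.21, 0.06 and -0.02. With 1 array left out these ran from 0.18 to 0.25, from 0.02 to 0.08 and from -0.01 to 0.09. Mitf was the only MiT/TFE factor itself among the 14, at -0.08 (adjusted p = 0.934). The others were regulators, and the gene of TFEB was not among them. At an unadjusted p under 0.05 there were 2 higher and 0 lower sorting genes, 1 higher and 0 lower pump subunits, and 1 higher and 2 lower MiT/TFE genes. Of all genes by brightest probe set, 9.37% were higher and 11.2% lower at that level, so these counts lay near the background for the pump and the MiT/TFE genes. The smallest p in these lists belonged to Lrp1, an endocytic receptor, at 0.57 ± 0.22 (adjusted p = 0.172), Atp6v0d1, a pump subunit, at 0.47 ± 0.17 (0.141), and Ppp3ca, a catalytic subunit of the phosphatase calcineurin, at -0.60 ± 0.17 (0.0753).

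**Figure D4:**
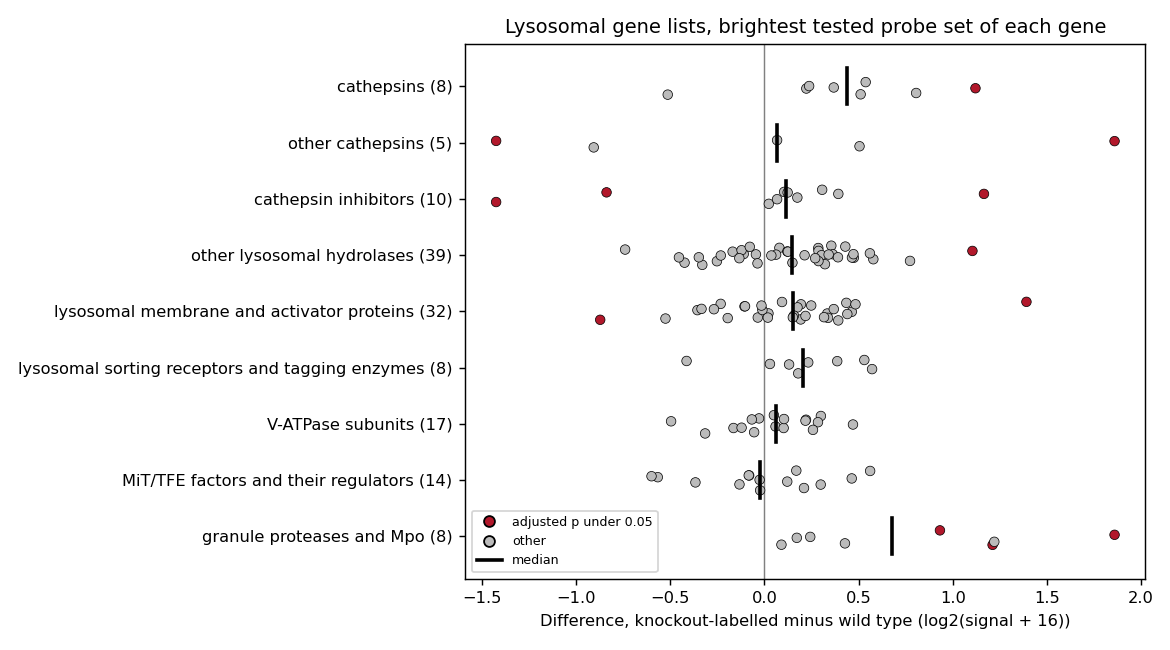
Difference (knockout-labelled minus wild type, log2(signal + 16)) of each tested gene by its brightest tested probe set, for the cathepsins and 8 related lists, with the number of genes in brackets, the median as a bar and genes with an adjusted p under 0.05 in red. The medians are 0.44 for the cathepsins, 0.15 for the other hydrolases and 0.68 for granule proteases and Mpo.

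All 8 tested genes on a list of granule proteases had a difference above 0, and wild-type array 8 was again the highest wild-type array for their sum. The list was made of granule serine proteases, several of which Ctsc activates, and also held the peroxidase Mpo and the Ctsg described above. Of 8 tested members 3 rose and 0 fell (1.41% and 2.49% of all genes), with a median of 0.68, and of 0.96 once wild-type array 8 was left out. The summed signal of the list was 60584, 61777 and 59188 on knockout-labelled arrays 5, 7 and 8, against 22414, 20138 and 45769.8 on wild-type arrays 5, 7 and 8, so wild-type array 8 stood between the groups. Most of the sum came from Mpo, Ctsg and Prtn3, at 32139, 16621 and 8017 on knockout-labelled array 5. Besides Ctsg, Prtn3, a neutrophil serine protease, rose by 1.21 ± 0.28 (adjusted p = 0.0330) and Mpo by 0.93 ± 0.21 (adjusted p = 0.0252), both lost in most fits with an array left out (up to 0.150 and 0.120). Elane, neutrophil elastase, gave 1182, 1873 and 1956 on the knockout-labelled arrays, against 364, 427 and 2079 on the wild-type arrays, where array 8 was the highest of all 6. The remaining tested members were not called. Gzma, Gzmk, Gzmm and Mcpt8 stood at 0.09, 0.17, 0.24 and 0.43 (adjusted p of 0.936, 0.788, 0.678 and 0.417).

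Markers of other cells also differed between the groups. Beside the counts that follow, 1.41% of all genes rose and 2.49% fell, or 2.33% and 4.03% in the blocked fit. Of 20 tested monocyte and macrophage markers, out of 24 on the array, 6 rose and 0 fell (7 and 0 when blocked on the sample number), with a median of 0.52. Their summed signal was 47209 to 49809.6 on the knockout-labelled arrays, against 30823 to 41483 on the wild-type arrays, the highest of these being array 8. Marco was the marker of this list at or below the control level on all arrays. Ccr2, by which inflammatory monocytes are drawn into tissue, rose by 2.08 ± 0.29 (adjusted p = 0.00193) and Clec7a, a receptor for fungal glucans, by 1.28 ± 0.19 (adjusted p = 0.00289). On wild-type array 8 Ccr2 was the lowest of all, at 224, against 503 and 323 on wild-type arrays 5 and 7. The part of these cells, and of wild-type array 8's granule genes, in the cathepsin differences was not tested.

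Of 5 tested mast cell and basophil markers, out of 12 on the array, 1 rose and 0 fell (2 and 0 when blocked on the sample number), with a summed signal of 8769 to 11459 on the knockout-labelled arrays, against 5369 to 7787 on the wild-type arrays. Hdc, which makes histamine, rose by 2.58 ± 0.52 (adjusted p = 0.0162, up to 0.0982 with 1 array left out), and Cpa3, a mast cell carboxypeptidase, was at 0.76 ± 0.21 (0.0603, blocked 0.0437). Of 11 tested neutrophil markers, out of 15, 1 rose and 5 fell (1 and 7 with the block), and the sums were 9579 to 19349.8 on the knockout-labelled arrays, against 24327 to 47422 on the wild-type arrays. Ngp, a protein of secondary granules, fell by 3.37 ± 0.23 (adjusted p = 8.15e-06) and Mmp8, neutrophil collagenase, rose by 2.21 ± 0.25 (adjusted p = 0.000495). Of 10 tested dendritic cell markers 0 rose and 2 fell, Ccr9 and Flt3, with sums of 11021 to 12664 on the knockout-labelled arrays, against 14760.4 to 18265 on the wild-type arrays. Of 9 tested LSK cell markers 0 rose and 3 fell (Kit, Flt3 and Hlf), with sums of 29869.7 to 34228 on the knockout-labelled arrays, against 35468 to 43143 on the wild-type arrays. Cd34 alone gave 13294 to 18188 of these sums on the knockout-labelled arrays, against 15603 to 20461 on the wild-type arrays. The groups of Cd34 overlapped.

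Of 11 tested B and plasma cell markers 2 rose, Igha and Ighg3, and 0 fell (2 and 2 with the block). The 2 that fell with the block were Blnk and Sdc1, at -0.86 and -0.87 in the main fit. Only 3 of these 11 markers had a positive difference, and the list's median difference was -0.16. Its sums were 68444 to 146638 on the knockout-labelled arrays, against 66146 to 80363 on the wild-type arrays. The highest sum was that of knockout-labelled array 5, where Igha alone had a signal of 60974. Among 6 tested T and NK cell markers 0 rose and 1 fell, Klrd1 (1 and 1 with the block), with sums of 5562 to 5705 on the knockout-labelled arrays, against 5204 to 5924 on the wild-type arrays. Among 11 erythroid and megakaryocyte markers 0 rose and 1 fell, Car2, with sums of 12452 to 12821 on the knockout-labelled arrays, against 20424 to 37356 on the wild-type arrays. With 1 array left out, the calls of Klrd1, Ccr9, Kit and Igha were lost in at least 1 fit (adjusted p up to 0.151, 0.131, 0.132 and 0.0509), and those of Flt3, Hlf, Ighg3 and Car2 were kept in all 6 such fits. The part of these cells in the cathepsin values was not tested either.

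**Figure D5:**
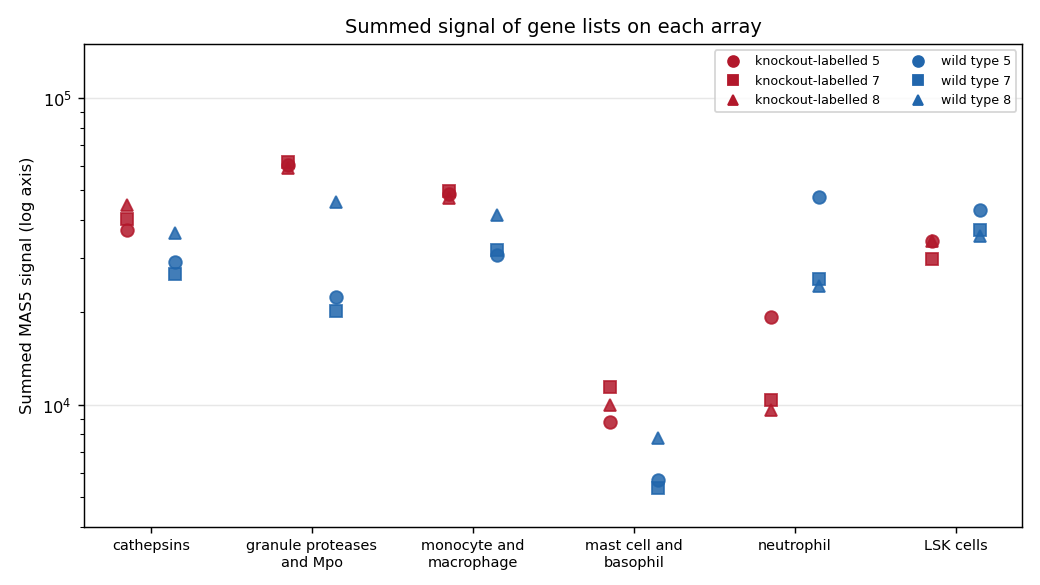
Summed MAS5 signal (log axis) of 6 gene lists on each knockout-labelled array (red, left) and wild-type array (blue, right), each gene by its brightest probe set, with symbols for arrays 5, 7 and 8. Wild-type array 8 is the highest wild-type array for the cathepsins, granule proteases and Mpo, monocyte and macrophage, and mast cell and basophil lists, and the lowest for the neutrophil and LSK lists. Within the LSK list, Cd34 and Flt3 are at their lowest wild-type signal on array 8, and Kit and Hlf at their highest.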

How the data were processed

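RNA of sorted LSK cells was measured on 6 single-colour Affymetrix arrays. The deposited values are linear intensity values, 1 signal per probe set and array, made with MAS5, per the submitters' processing notes (version and settings not given in the sources used here). No scaling step is recorded there. Probe sets were named from the platform annotation where it gives a single symbol (20380 of 22626 after 64 AFFX controls were left out).

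From these, log2(signal + 16) was computed. Those in the top 60% by mean (13575 probe sets) were fitted with limma 3.58.1 in R 4.3.3 (lmFit, eBayes with trend, two-sided, Benjamini-Hochberg over all 13575, threshold 0.05). The fit was also run on simulated data, with an outcome not reported here. The simulated noise was independent between arrays, without pairing by number or an array that stood apart. Alternatives changed the pseudocount (1 or 64), the filter, the trend, the normalization, the block, the arrays and the probe sets per gene. Precision is limited by how few arrays there are.

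The titles' numbers 5, 7 and 8 may pair the samples. Same-numbered arrays deviated together from their groups (r of 0.159, 0.168 and 0.238), while the others gave r of -0.134 to -0.0307. Deviations from a group's mean cancel within the group, so the negative values are not separate evidence of pairing. The main fit left the numbers out. Its standard errors and adjusted p-values thus ignore any pairing, and only the values marked as blocked take it into account.

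Genes named outside the cathepsins were those with the smallest p in 8 related lists (up to 4 each) and 8 marker lists (up to 2 each), plus nearest profiles. Kit, Cd34, Ctla2a and the other genes named beside counts fall outside this rule, chosen with their values in view. The members and lists were chosen with earlier results of these data known.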

Additional observations from a re-analysis of the deposited data

How the results depend on the processing

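All 14 cathepsin probe sets kept the sign of their difference in all 13 alternative fits. The 2 probe sets called higher became 4 when blocked on the sample number (the replicate block), 1 with median centring, 1 with quantile normalization, 0 without the filter on dim probe sets, 0 with eBayes without trend and 1 with the brightest probe set of each gene only. With 1 array left out they numbered 0 to 5 (5 without wild-type array 8), a setting with fewer arrays to estimate the spread, and 0 passed as lower in every alternative. Their median of 0.57 ran from 0.44 to 0.78 with 1 array left out, the highest without wild-type array 8. Over all probe sets the 196 higher and 297 lower calls became 320 and 479 with the block, 69 and 119 without the filter, 57 and 124 with eBayes without trend, and 169 and 193 with median centring, and with 1 array left out 34 to 266 and 90 to 282. The block on the sample number changed the calls of Ctsb 1448732_at and Ctsd among the cathepsins and no other cathepsin call. The cause of these changes was not tested. Of 182 alternative values for cathepsin probe sets, 162 stayed on the same side of the threshold, 14 fell short of it and 6 newly passed. The number of arrays, 3 a group, limits the precision of all these values.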
